A study of Mus musculus with 2 samples.

Results

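Mir23, Mir27 and Mir24 are microRNA (miRNA) genes that lie in the same order in a pair of paralogous clusters. In mouse, Mir23a, Mir27a and Mir24-2 form the cluster on chromosome 8, and Mir23b, Mir27b and Mir24-1 form the cluster on chromosome 13. Members were chosen by symbol, and 6 of the 1973 counted miRNA genes matched, namely Mir23a, Mir27a, Mir24-2, Mir23b, Mir27b and Mir3074-1. Mir3074-1 is the counted gene on the strand opposite Mir24-1, so the reads on its opposite strand were read as Mir24-1 and the reads on its own strand as Mir3074-1. This gave 7 values in each library. The material was embryonic facial prominence, from which the face and jaws develop, of B6NCrl mouse embryos at day 15.5 with both sexes pooled. The embryos carried no labelled treatment or engineered allele. There was 1 group of 2 biological replicates profiled by microRNA sequencing, with 78 embryos pooled for replicate 1 and 62 for replicate 2. The pools hold many cell types, and fewer cells of a type and less RNA per cell cannot be told apart in such samples.

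Each such cluster is transcribed as a primary RNA that carries several hairpins, and every hairpin is cut into a duplex with a 5p and a 3p arm. One arm is usually retained by an Argonaute protein and pairs with messenger RNAs through its seed, bases 2 to 8. The miRNAs miR-23 and miR-27 are known for roles in blood vessel growth, and miR-27 for restraining fat cell differentiation. In mouse bone-forming cells miR-23a represses Runx2, a master regulator of osteoblasts. The miRNA miR-24 is known for effects on the cell cycle and on endothelial survival.

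The mature sequences show how far the copies can be told apart, so the arms of each pair are given here from RefSeq, build GRCm38.p6, 5′ to 3′ with the seed in capitals. The entry for miR-23b-3p is named only.
miR-23a-3p: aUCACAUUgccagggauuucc
miR-23a-5p: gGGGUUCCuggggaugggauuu
miR-23b-5p: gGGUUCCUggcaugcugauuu
miR-27a-3p: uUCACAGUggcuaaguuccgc
miR-27b-3p: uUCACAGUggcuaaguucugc
miR-27a-5p: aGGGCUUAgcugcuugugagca
miR-27b-5p: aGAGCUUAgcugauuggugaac
miR-24-3p: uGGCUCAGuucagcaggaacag
miR-24-2-5p: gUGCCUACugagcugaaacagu
miR-24-1-5p: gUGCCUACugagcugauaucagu
miR-3074-5p: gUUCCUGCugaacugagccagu

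The 3p arms of the Mir27 genes shared the seed UCACAGU, which no other mature miRNA in the table carried, and differed over 21 bases by the substitution C19U. That token gives the miR-27a-3p base, the position counted from the 5′ end and the miR-27b-3p base. The first 18 of the 21 bases of miR-23a-3p also occurred in the Mir23b hairpin. A full-length read of miR-23a-3p or of either Mir27 3p arm therefore carries the difference from the other copy in its last 3 bases. The seeds of miR-23a-3p and miR-27a-3p matched at 6 of 7 positions, the first 5 of them in a row. All 22 bases of miR-24-3p were the same in both Mir24 hairpins, which shared a stretch of 28 bases, so a read of that arm maps to both loci. The 5p arms of the Mir24 genes shared their first 16 bases and the seed UGCCUAC, and differed after that. The sequence miR-3074-5p was listed at both Mir24 loci, on the opposite strand. The deposited counts are per gene, so 5p and 3p reads cannot be separated.

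The chromosome 8 hairpins were packed more closely than those on chromosome 13. On mm10, Mir23a lay at chr8:84208518-84208592, Mir27a at chr8:84208672-84208758 and Mir24-2 at chr8:84208815-84208921, all on the plus strand and together 404 bases long. In GENCODE M21, Mir23a and Mir27a lay outside other genes, and Mir24-2 overlapped an exon of the long noncoding gene Gm26532. Mir23b at chr13:63300484-63300557, Mir27b at chr13:63300712-63300784 and Mir24-1 at chr13:63301208-63301275 spanned 792 bases on the plus strand. Mir23b lay in an intron of the protein-coding gene 2010111I01Rik, while Mir27b and Mir24-1 overlapped annotated exons of that gene. All of these chromosome 13 hairpins lay opposite an intron of Fancc, a DNA repair gene. Mir3074-1 lay on the minus strand at chr13:63301199-63301283.

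**Figure D1:**
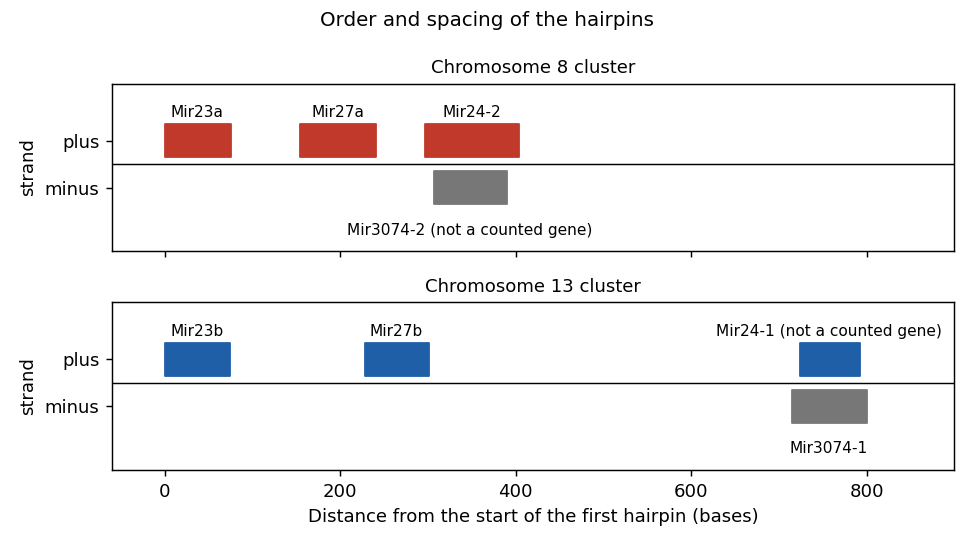
Map of both clusters, with the distance from the start of the first hairpin in bases on the x axis and the strand on the y axis; bars are annotated hairpins. The order of the genes was the same, with 79 and 56 bases between neighbouring hairpins on chromosome 8 and 154 and 423 bases on chromosome 13.

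The libraries held 5840705 reads in replicate 1 and 14085643 in replicate 2, of which 2978463 and 6408008 were assigned to miRNA genes. Reads that mapped to several places stand on a line of their own. That they are in no gene's count is inferred from this, since the sources used here do not state the counting rule. Their number relative to the assigned reads was 60.1% (replicate 1) and 65.3% (replicate 2). Levels are in counts per 1000000 assigned reads (CPM) after TMM scaling. A count of 3 reads, the floor, corresponded to 1.00 CPM (replicate 1) and 0.470 CPM (replicate 2). All 7 values were above the floor and above the detection minimum of 10 reads in both libraries. Among lists of tissue markers, epithelial genes summed to 140261 ± 16606 CPM and mesenchymal genes to 17328 ± 1070 CPM. Endothelial Mir126a had 26285 ± 3011 CPM, cartilage genes summed to 14886 ± 674 CPM and striated muscle genes to 6954 ± 1396 CPM. Nearly all of the muscle sum was Mir206 (6878 ± 1390 CPM), and 3 of 5 counted muscle genes were at the floor. Neural genes summed to 203 ± 9.51 CPM, with 4 of 6 counted genes at the floor, and blood genes to 715 ± 42.8 CPM (all SD, n = 2). Several lists hold numbered copies of a miRNA, such as Mir124a-1 and Mir124a-2, Mir133a-1 and Mir133a-2, or Mir199a-1 and Mir199a-2. Reads that map to several copies are missing from these sums if multiply mapped reads were left out, which was not tested. A low sum is therefore not read as absence of a tissue.

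The 6 miRNAs of the clusters took 9.26% (replicate 1) and 7.87% (replicate 2) of the assigned reads, and nearly all of these came from Mir23a and Mir23b. Their summed level was 92290 CPM (replicate 1) and 78963 CPM (replicate 2), with a mean of 85627 ± 9424 CPM (SD, n = 2). The chromosome 13 cluster summed to 59731 and 51259 CPM and the chromosome 8 cluster to 32559 and 27704 CPM. Both libraries thus had the chromosome 13 sum higher, and it supplied 64.8% ± 0.137 of the reads of both clusters (SD, n = 2).

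Mir23b was the highest of the genes. It had 54934 CPM in replicate 1 and 47949 CPM in replicate 2, from 164191 and 306188 reads, and ranked 4 and 5 among all counted genes. Mir23a had 31664 CPM in replicate 1 and 26969 CPM in replicate 2, from 94640 and 172213 reads, at ranks 7 and 10. The libraries did not overlap between these genes, and each was somewhat higher in replicate 1. In order of mean CPM, Mir23b stood between Mirlet7g (52439 ± 666 CPM) and Mir335 (39738 ± 622 CPM). Its mean of 51442 ± 4939 CPM lay within its SD of Mirlet7g but not of Mir335. Mir23a, at 29316 ± 3320 CPM, stood between Mir322 (31509 ± 1378 CPM) and Mir26b (26922 ± 1754 CPM), and differed from both by less than its own SD (n = 2).

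Mir27b and Mir27a, the middle hairpins, were at far lower counts than their Mir23 neighbours. Mir27b had 4723 CPM in replicate 1 and 3220 CPM in replicate 2, with a mean of 3972 ± 1063 CPM (SD, n = 2). Mir27a had 510 and 370 CPM, a mean of 440 ± 99.1 CPM (SD, n = 2). Both were lower in replicate 2, and the lowest Mir27b value was well above the highest Mir27a value. By mean CPM, Mir27b stood between Mir125a (3999 ± 15.9 CPM) and Gm24083 (3831 ± 377 CPM), and Mir27a between Mir25 (482 ± 9.79 CPM) and Mir671 (427 ± 15.0 CPM). None of these rank neighbours differed from the Mir27 gene beside it by more than the larger SD.

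The Mir24 genes were counted at low levels, and reads of their shared 3p arm, which map to both loci, are missing from these counts if multiply mapped reads were left out. Mir24-2 had 385 CPM in replicate 1 and 366 CPM in replicate 2, from 1150 and 2334 reads. Mir24-1, on the strand opposite Mir3074-1, had 73.9 and 89.1 CPM, from 221 and 569 reads. Mir24-2 was higher than Mir24-1 in both libraries. The mean of Mir24-2, 375 ± 13.6 CPM, differed from that of Mir27a by less than the SD of Mir27a, although Mir27a was the higher in both libraries, by 1525 against 1150 and 2363 against 2334 reads. The rank neighbours of Mir24-2, Mir10a (380 ± 232 CPM) and Mir186 (348 ± 49.9 CPM), did not differ from it beyond the larger SD either (n = 2). Mir24-1, at 81.5 ± 10.7 CPM, stood between Mir770 (82.4 ± 9.65 CPM) and Mir138-2 (81.4 ± 6.27 CPM), within the larger SD of both.

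Mir3074-1 itself, the antisense gene at the Mir24-1 locus, had 30.1 CPM in replicate 1 and 34.8 CPM in replicate 2, from 90 and 222 reads on its own strand. Its mean of 32.4 ± 3.29 CPM (SD, n = 2) was the lowest of the 7 values and lay within the larger SD of Mir760 (36.6 ± 5.84 CPM) and Mir3072 (31.9 ± 5.95 CPM). The Mir24-1 strand held 71.1% of the reads at this locus in replicate 1 (95% Clopper-Pearson interval 65.7 to 76.0) and 71.9% in replicate 2 (68.7 to 75.0), and these intervals overlapped. The other 5 counted genes had reads almost only on their own strand. Mir23a, Mir27a and Mir23b had 0 reads on the opposite strand in both libraries, and Mir27b had 0 and 2. Mir3074-1 shared 11 of its 66 stretches of 20 bases with Mir3074-2 on chromosome 8, so its counts are uncertain.

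**Figure D2:**
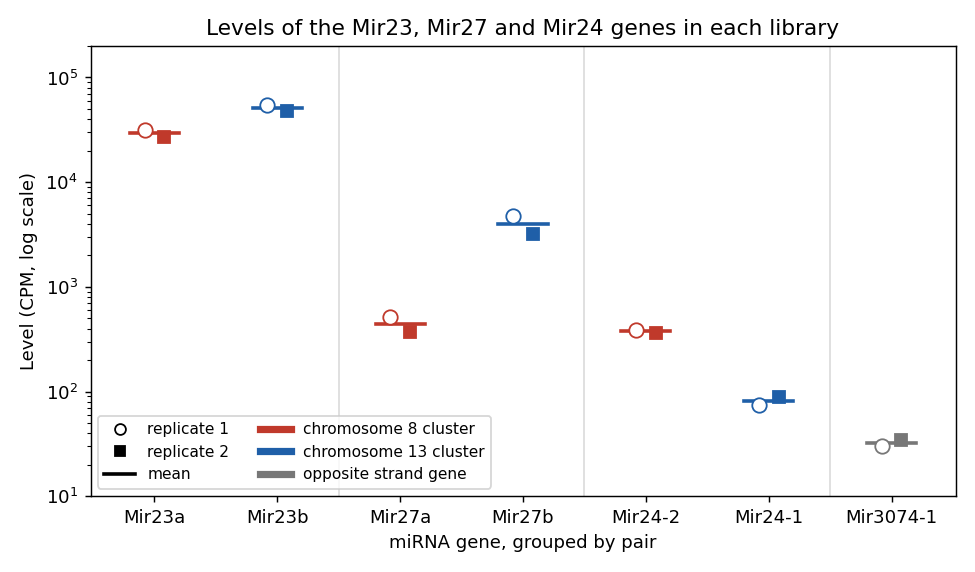
Level of each gene in CPM on a log axis, with replicate 1 as open circles, replicate 2 as filled squares and the mean of 2 libraries as a line; colour marks the cluster. Mir23b and Mir23a lie at or above 26969 CPM, Mir27b between 3220 and 4723 CPM, and the other values at or below 510 CPM.

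The copy that supplied most reads differed from pair to pair. In the Mir23 pair, Mir23b took 63.4% of the reads in replicate 1 (95% Clopper-Pearson interval 63.2 to 63.6) and 64.0% in replicate 2 (63.9 to 64.1). In the Mir27 pair, Mir27b took 90.3% in replicate 1 (89.8 to 90.7) and 89.7% in replicate 2 (89.3 to 90.1). In the Mir24 pair, Mir24-1 took 16.1% in replicate 1 (14.2 to 18.2) and 19.6% in replicate 2 (18.2 to 21.1). The chromosome 13 gene was thus ahead for Mir23 and Mir27 and the chromosome 8 gene for Mir24, in both libraries. The mean shares were 63.7% ± 0.401, 90.0% ± 0.394 and 17.9% ± 2.46 (SD, n = 2), and the intervals of different pairs did not overlap in either library. The part that multiply mapped reads have in these shares was not tested. If such reads were left out, the Mir24 share rests on reads that reach outside the 28 shared bases. Intervals here cover counting error only and not variation between pools. Reads without molecular identifiers are not independent molecules, so the intervals may be too narrow even for counting error.

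**Figure D3:**
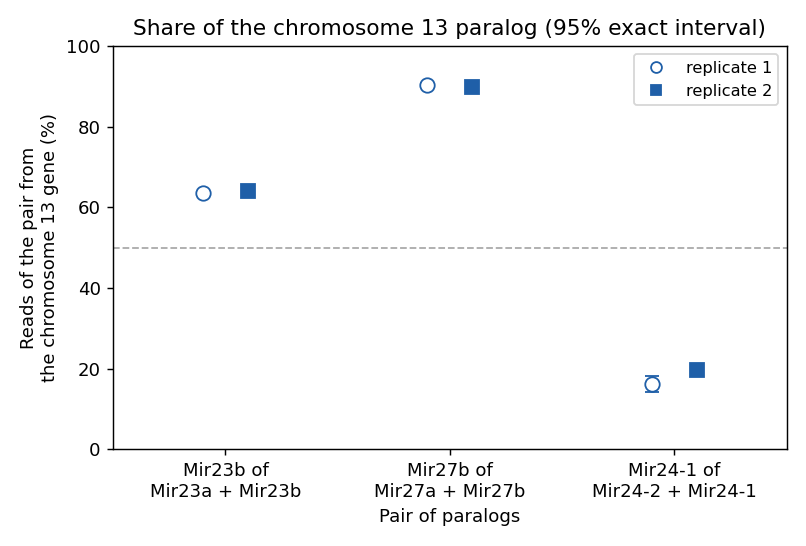
Share of each pair's reads that came from the chromosome 13 gene, in percent, with 95% exact binomial intervals; open circles are replicate 1, filled squares replicate 2, and the dashed line marks equal shares. The shares are near 64% for Mir23b, near 90% for Mir27b and below 20% for Mir24-1.

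Hairpins of the same cluster were counted at very different levels. Reads of the arm that both Mir24 hairpins share map to both loci. If multiply mapped reads were left out, the Mir24 ratios and shares given here lack that arm. The Mir23 hairpins shared a stretch of 20 bases, as did the Mir27 hairpins, and reads inside it could be lost in the same way. The size of these losses was not tested. On chromosome 8, Mir23a had 62.1 times the reads of Mir27a in replicate 1 and 72.9 times in replicate 2. Its reads exceeded those of Mir24-2 82.3-fold and 73.8-fold. On chromosome 13, Mir23b had 11.6 and 14.9 times the reads of Mir27b, and 743 and 538 times those of Mir24-1. Mir23 hairpins led both clusters, with 97.3% ± 0.0663 of the reads on chromosome 8 and 92.8% ± 1.11 on chromosome 13 (SD, n = 2). Mir27a and Mir24-2 took 1.45% ± 0.164 and 1.25% ± 0.0973 of the chromosome 8 reads, while Mir27b took 7.09% ± 1.15 and Mir24-1 0.149% ± 0.0354 of those on chromosome 13.

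A mature miRNA gives reads of about its own length from a hairpin of any length, so CPM were not divided by length in these ratios. Per 100 hairpin bases, the order of the genes was the same. Mir23b then had 69516 CPM and Mir23a 39089 CPM, Mir27b 5441 and Mir27a 506 CPM, and Mir24-2 351 and Mir24-1 120 CPM. The ratio of Mir27b to Mir27a was 8.98 ± 0.392 in reads and 10.7 ± 0.467 per length. The ratio of Mir24-2 to Mir24-1 was 4.65 ± 0.779 in reads and 2.96 ± 0.495 per length (SD, n = 2).

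The spread within these clusters was set beside that of the other clusters of counted genes, defined as detected genes on 1 strand no more than 10 kb apart. Across 41 other clusters, the median range from the highest to the lowest mean CPM was 21.9-fold. The chromosome 13 cluster, with Mir24-1 included, ranged 631-fold and stood at rank 5 of 43. The chromosome 8 cluster ranged 78.1-fold and stood at rank 14. In each cluster the lowest value was that of the Mir24 gene, which lacks its shared 3p reads if multiply mapped reads were left out. The mean read ratio of Mir23b to Mir27b was 13.3, and that of Mir23a to Mir27a was 67.5. The 4 clusters with wider ranges were those around Mir322 on the X chromosome (2130-fold, 7 genes), from Mir379 to Mir3072 on chromosome 12 (1736-fold, 29 genes), of Mir17 (1438-fold, 6 genes) and of Mir449a (751-fold, 3 genes). Among 6 other clusters of 3 genes the median was 32.8-fold. Other clusters also hold genes with numbered copies, such as Mir181a-1 and Mir199a-2, so the median and the ranks carry the same limit, which was not tested. Mir24-1 was the only value in these clusters that was read from an opposite strand. These ranges are a description.

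The libraries were compared to ask how far the clusters vary between pools of the same tissue. With 1 library against 1 there is no replicate check of such a difference, so no p-value is given, and a difference over 1.5-fold was the call. None of the 7 values differed by over 1.5-fold, where 36 of 333 tested genes, or 10.8%, did so in either direction. A share of 10.8% of 7 values would be less than 1 gene, so this count does not set the clusters apart. The calls over all genes were 25 higher in replicate 2, or 7.51%, and 11 higher in replicate 1, or 3.30%. With all reads in the file as the denominator, unmapped and multiply mapped reads included, Mir27a and Mir27b were past 1.5-fold at log2 ratios of −0.64 and −0.73. The median log2 ratio of all tested genes then shifted by −0.17, and the calls turned to 18 higher in replicate 2 and 39 higher in replicate 1.

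The Mir27 genes came closest to that limit. Mir27b differed by a log2 ratio of replicate 2 over replicate 1 of −0.55 (95% counting interval −0.58 to −0.52), a fold of 1.47, and 15 of 333 tested genes had a lower ratio. Mir27a differed by −0.46 (−0.56 to −0.37), with 27 genes lower. Mir23a and Mir23b had log2 ratios of −0.23 (−0.24 to −0.22) and −0.20 (−0.20 to −0.19), near the median size of 0.20 over all tested genes. The ratio of Mir24-2 was −0.07 (−0.18 to 0.03). Mir24-1 had 0.27 (0.04 to 0.50) and Mir3074-1 0.21 (−0.15 to 0.58). Thus 5 values were higher in replicate 1 and 2 in replicate 2, with intervals that include 0 for Mir24-2 and Mir3074-1. The median over the 7 values was −0.20, beside −0.02 over all tested genes.

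**Figure D4:**
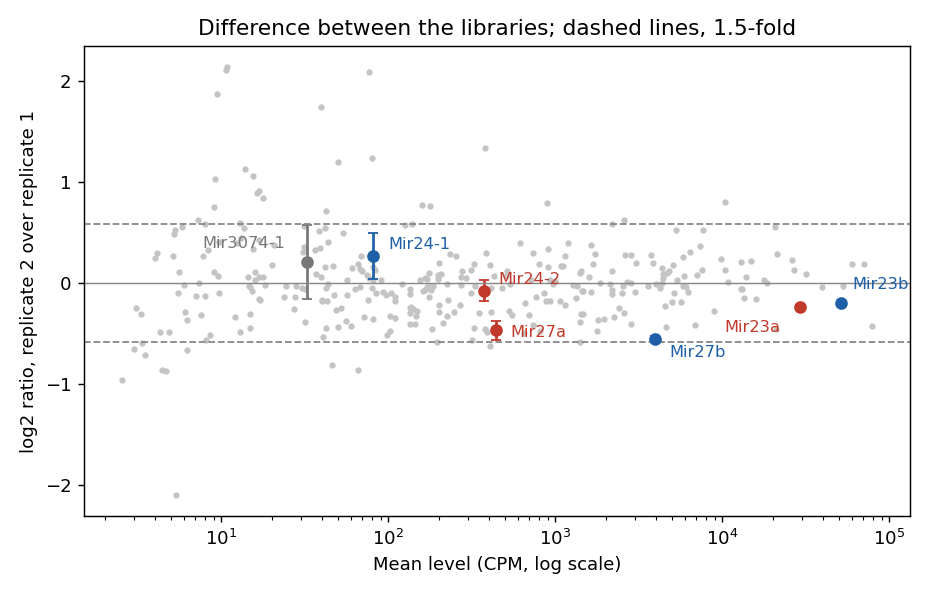
Log2 ratio of replicate 2 over replicate 1 against mean CPM on a log axis for the tested genes, in grey, and the 7 values, in colour with 95% counting intervals; dashed lines mark 1.5-fold. The Mir27 genes lie just inside the lower line at −0.46 and −0.55, and the Mir23 genes near −0.2.

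The range of this ratio was smaller within the Mir23 and Mir27 pairs than within either cluster. The Mir24 pair was only slightly below the chromosome 8 cluster, by less than the width of the counting interval of Mir24-1 (0.04 to 0.50). Mir24-1 also sets the upper end of the range on chromosome 13. A range over 3 genes has more room than a range over 2, and no test of these ranges was made. The log2 ratios of Mir23a and Mir23b lay 0.04 apart, those of Mir27a and Mir27b 0.09 apart and those of Mir24-2 and Mir24-1 0.34 apart. Within the chromosome 8 cluster the ratios ranged over 0.39 and within the chromosome 13 cluster over 0.82. Across 41 other clusters the median range was 0.26, from 0.01 to 1.44. The sums of the clusters had nearly equal ratios, −0.23 (−0.24 to −0.22) on chromosome 8 and −0.22 (−0.23 to −0.21) on chromosome 13, since Mir23 reads dominate both. The Mir27 pair summed to 5233 CPM (replicate 1) and 3590 CPM (replicate 2), whereas the Mir24 pair summed to 459 and 455 CPM. In replicate 2, which was sequenced more deeply, a larger part of the reads was unmapped, 21.8% against 16.2%, and the part of this in the ratios was not tested.

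**Figure D5:**
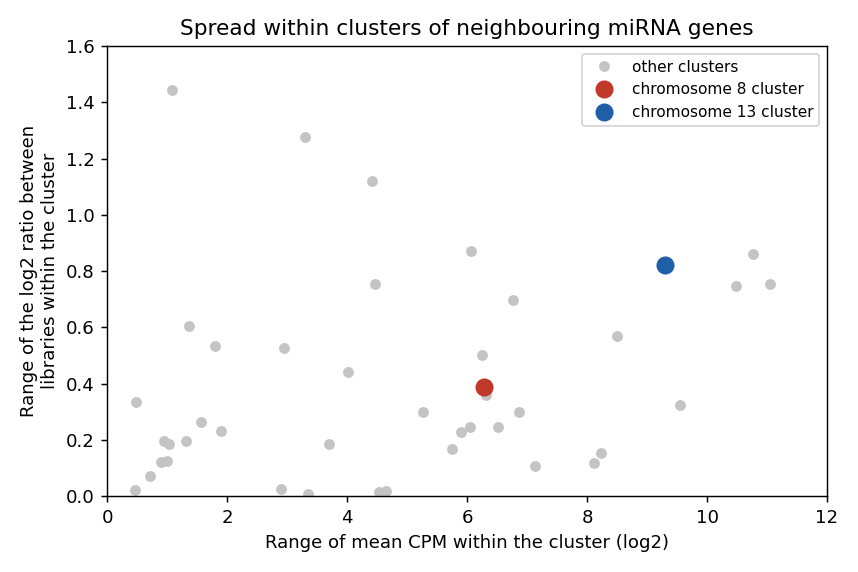
Range of mean CPM within each cluster of neighbouring miRNA genes (x axis, log2) against the range of the log2 ratio between libraries within it (y axis); each point is a cluster. The chromosome 13 cluster lies at 9.30 and 0.82 and the chromosome 8 cluster at 6.29 and 0.39.

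The counted genes within 100 kb of a member were all near the chromosome 8 cluster. Mir181c and Mir181d lay on the minus strand 29557 and 29731 bases from it, and Gm25110 lay 51641 bases away with 0 reads in both libraries. Mir181c, of a family known from lymphocytes and vessels, had 4278 CPM in replicate 1 and 4552 CPM in replicate 2, and Mir181d had 2669 and 2700 CPM. These neighbours were thus above Mir27a and Mir24-2 and below Mir23a in both libraries. Their log2 ratios of 0.09 (0.06 to 0.12) and 0.02 (−0.02 to 0.06) lay above those of all 3 genes of the chromosome 8 cluster.

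The Mir181 family also has paralogous clusters, and its counted reads were likewise split unequally between copies. Reads that map to both copies of a pair are missing from these shares if multiply mapped reads were left out. How many such reads the Mir181 genes have was not tested. Mir181a-2 took 10.6% of the reads of Mir181a-1 and Mir181a-2 in replicate 1 (9.74 to 11.4) and 8.07% in replicate 2 (7.61 to 8.55). Mir181b-2, its neighbour, took 98.0% of the reads of the Mir181b pair in both (97.2 to 98.6 and 97.6 to 98.4). As with Mir24 against Mir23 and Mir27, the copy ahead in reads came from a different cluster for each miRNA. None of the 6 Mir181 genes differed by over 1.5-fold between libraries, where the share over all tested genes was 10.8%, too low for this count to set the family apart.

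Vessel-associated miRNAs were compared because miR-23 and miR-27 are studied in blood vessels. Of 11 listed genes 9 matched a counted symbol, and Mir126b and Mir92a-1 did not. A gene named Mir92-1 was counted in the Mir17 cluster and was not part of this list, so the list may be incomplete. The 9 matched genes summed to 64941 CPM (replicate 1) and 69140 CPM (replicate 2). The highest of them was Mir126a, the endothelial miRNA within Egfl7, with 24156 and 28414 CPM. It was followed by Mir130a with 18439 and 18476 CPM, smooth muscle Mir143 with 17587 and 17982 CPM, and Mir296 with 3084 and 2903 CPM. Replicate 2 had more Mir126a, with a log2 ratio of 0.23 (0.22 to 0.25), while both Mir23 genes were higher in replicate 1. Of the 9 vessel genes, 3 were higher in replicate 2 and 6 in replicate 1, among the latter Mir210 (−0.41) and Mir221 (−0.33). Markers of other cell types went in both directions. Epithelial genes summed to 152004 CPM (replicate 1) and 128519 CPM (replicate 2), with 3 of 7 higher in replicate 1, among them Mir203 (−0.43) and Mir205 (−0.46). Striated muscle genes summed to 7941 and 5967 CPM, with Mir206 at −0.42, and cartilage genes to 15363 and 14410 CPM, with Mir455 at −0.36. Both tested genes of the muscle list and both of the cartilage list were higher in replicate 1. In the mesenchymal list 3 of 4 genes were higher in replicate 2, although Mir214, its highest gene, was at −0.16. In the blood list 2 of 3 genes were higher in replicate 2, as was the 1 tested neural gene. The part of these cell types in the ratios of the clusters was not tested. None of the 9 vessel genes differed by over 1.5-fold, where 10.8% of all tested genes did. That share is too low for this count to set the list apart. The median log2 ratio of the 9 vessel genes was −0.09.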

How the data were processed

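The authors deposited raw counts of reads per miRNA gene for each library, on mm10 with GENCODE M4, per the file list they deposited. The 3 count columns hold reads regardless of strand, sense reads and antisense reads, with separate lines for unmapped and multiply mapped reads, which stayed out of library sizes. The sources used here do not give the aligner or counter. Gene names and positions came from GENCODE M21 on the same build, which named 1894 of 1973 identifiers. Counts regardless of strand were used, with the opposite strand of Mir3074-1 for Mir24-1 and its own strand for Mir3074-1. They were scaled with TMM in edgeR 4.0.16 (R 4.3.3) over genes with at least 10 reads in each library.

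By their labels the samples are biological replicates from separate pools of embryos. With 2 libraries of 1 group no test between conditions exists. Ratios carry 95% exact conditional binomial intervals and shares 95% Clopper-Pearson intervals. Members, lists, the fold of 1.5 and the alternatives were chosen with earlier results of these data known. Named genes were the members, counted genes within 100 kb, rank neighbours by mean CPM and up to 4 genes of highest mean CPM per list. The wider clusters, the Mir181 copies and the tissue markers with ratios were named after their values were seen. Intervals were computed with scipy 1.17.1, tables with pandas 2.3.3, in Python 3.11.15.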

Additional observations from a re-analysis of the deposited data

Results flagged for a closer look

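Reads on the strand opposite Mir24-2 were not compared on their own, but the counts regardless of strand used for Mir24-2 include them. Replicate 2 had 5 such reads, above the floor of 3, and replicate 1 had 0. They made up 0.214% of the reads at that gene in replicate 2 (95% Clopper-Pearson interval 0.0696 to 0.499). Mir3074-2, which lies on that strand at chr8:84208825-84208907, is not among the counted genes.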

How the results depend on the processing

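No paired analysis was possible because the samples form 1 group. None of the 7 values turned its direction. The log2 ratio of the Mir24 pair sum, −0.013, turned to 0.0055 with DESeq2 size factors and to 0.013 with length division. Of the 7 values 0 passed 1.5-fold under the other scalings, strand columns and length division, but with all reads in the file as the denominator, an alternative added after the data were seen, Mir27a (−0.64) and Mir27b (−0.73) did. That denominator gave 14611 CPM for the chromosome 8 cluster, 26902 CPM for the chromosome 13 cluster and 57 genes past 1.5-fold, 18 higher in replicate 2 and 39 in replicate 1. Genes past the fold were 11 with at least 100 reads in each library, 12 at a fold of 2 and 274 with no filter, of which 133 were higher in replicate 2 and 141 in replicate 1. Dividing by hairpin length, scaled to the median hairpin, gave cluster sums of 33953 and 63815 CPM, a Mir27b share of 91.4% and a Mir24-1 share of 25.5%. With both strands of Mir3074-1 counted as Mir24-1 its share was 23.3%. Shares cannot change with scaling. Leaving out each replicate gave 27704 to 32559 CPM for chromosome 8, 51259 to 59731 CPM for chromosome 13, and shares of 63.4% to 64.0%, 89.7% to 90.3% and 16.1% to 19.6%. Counts of 90 to 569 reads limit the precision of Mir24-1 and Mir3074-1.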
